A study of Mus musculus with 50 samples.

Results

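Ddx58, Ifih1, Dhx58, Mavs, Zbp1, Eif2ak2 and Adar are 7 genes of the RNA sensing system, taken by gene symbol from 55416 genes measured by RNA sequencing in RAW264.7 cells, a mouse macrophage line. All 7 passed the filter on low counts that left 18315 genes for testing. Every line carried CRISPR guides: an SGK1/SGK3 double KO, an SGK1 KO, an SGK3 KO, and control cells labelled WT with an empty vector guide. DMXAA, an agonist of mouse STING, was given at 10 µg/mL for 2 h, and Sanofi-14h, an inhibitor of SGK kinases, at 500 nM for 2 h before DMXAA. Batch b1 held the double KO with DMXAA (n = 5), the SGK3 KO with DMXAA (n = 5) and at rest (n = 3), and control cells with Sanofi-14h and DMXAA (n = 5), with DMXAA (n = 5) and at rest (n = 3). Batch b2 held the double KO with DMXAA (n = 3) and at rest (n = 3), the SGK1 KO with DMXAA (n = 4) and at rest (n = 3), and control cells with DMXAA (n = 4) and at rest (n = 3). The labels give 1 line per genotype and do not say whether it was a clone. They mention a DMSO vehicle without saying which libraries received it. Whether replicates came from separate cultures is not stated, and the p-values below cover only how far these libraries spread.

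RIG-I (Ddx58) and MDA5 (Ifih1) are cytosolic helicases that bind viral or misplaced RNA and signal through the mitochondrial adaptor MAVS to type I interferon, and LGP2 (Dhx58) is a helicase of the same family that lacks the signalling domains. ZBP1 binds Z-form nucleic acid and can start necroptosis, PKR (Eif2ak2) binds double-stranded RNA and phosphorylates the translation factor eIF2alpha, and ADAR1 (Adar) edits adenosine in double-stranded RNA and so keeps self RNA from the other sensors. Most of these genes are themselves interferon-stimulated, whereas STING, the target of DMXAA, responds to DNA through cyclic dinucleotides.

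The deposited tables place Ddx58 on chromosome 4 (40203773 to 40239828), Ifih1, Mavs and Zbp1 on chromosome 2 (62426142 to 62476599, 131075983 to 131089945 and 173048405 to 173060716), Dhx58 on chromosome 11 (100585710 to 100595097), Eif2ak2 on chromosome 17 (79159993 to 79190002) and Adar on chromosome 3 (89622329 to 89660753), all protein coding on GRCm39. Start regions of 5 of the 7 genes were matched by symbol in RefSeq, on the older build GRCm38.p6, as 250 bases before to 50 bases after a start. They are shown because, in control cells of b1, the other 4 genes rose with DMXAA and Mavs fell. As given below, Eif2ak2 did not rise in control cells of b2 and fell in the SGK1 KO. The Ddx58 region is chr4:40239776-40240075 (minus strand), that of Ifih1 chr2:62646206-62646505 (minus), that of Mavs chr2:131233813-131234112 (plus), that of Eif2ak2 chr17:78882523-78882822 (minus) and that of the third of the Adar starts chr3:89730468-89730767 (plus). Capitals mark matches on either strand to GAAA, any 2 bases and GAAA, or to the shorter GAAANNGAA, both forms of the core of the interferon-stimulated response element; every long match also holds a short one, and the motifs were chosen with the results known.
Ddx58: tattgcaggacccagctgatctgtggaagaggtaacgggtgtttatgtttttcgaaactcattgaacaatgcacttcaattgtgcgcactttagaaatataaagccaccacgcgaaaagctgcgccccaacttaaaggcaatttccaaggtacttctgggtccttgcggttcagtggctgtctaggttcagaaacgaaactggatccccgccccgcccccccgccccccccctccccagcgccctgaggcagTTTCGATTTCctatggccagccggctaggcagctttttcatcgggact
Ifih1: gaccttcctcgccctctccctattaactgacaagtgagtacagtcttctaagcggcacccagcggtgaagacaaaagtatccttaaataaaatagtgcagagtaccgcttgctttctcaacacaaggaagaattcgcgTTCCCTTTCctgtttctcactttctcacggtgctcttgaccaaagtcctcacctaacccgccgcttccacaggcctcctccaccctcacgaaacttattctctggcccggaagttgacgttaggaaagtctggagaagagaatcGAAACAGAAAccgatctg
Mavs: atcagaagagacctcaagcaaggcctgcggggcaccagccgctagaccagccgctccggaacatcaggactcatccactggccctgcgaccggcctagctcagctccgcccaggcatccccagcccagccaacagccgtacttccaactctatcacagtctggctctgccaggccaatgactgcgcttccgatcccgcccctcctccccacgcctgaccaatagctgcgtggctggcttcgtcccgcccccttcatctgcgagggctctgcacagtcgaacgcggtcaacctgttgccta
Eif2ak2: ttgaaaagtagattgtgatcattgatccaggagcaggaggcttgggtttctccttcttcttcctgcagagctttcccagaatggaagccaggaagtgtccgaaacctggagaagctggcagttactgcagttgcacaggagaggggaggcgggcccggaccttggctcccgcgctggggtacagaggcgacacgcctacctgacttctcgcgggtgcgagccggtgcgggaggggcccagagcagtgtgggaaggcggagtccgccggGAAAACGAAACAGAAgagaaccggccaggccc
Adar (start 3): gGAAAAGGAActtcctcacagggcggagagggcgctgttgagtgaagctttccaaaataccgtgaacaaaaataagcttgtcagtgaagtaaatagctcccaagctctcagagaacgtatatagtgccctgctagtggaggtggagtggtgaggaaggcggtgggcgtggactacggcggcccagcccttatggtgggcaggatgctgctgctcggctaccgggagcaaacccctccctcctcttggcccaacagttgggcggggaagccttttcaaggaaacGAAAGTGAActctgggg

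The long form was present in the regions of Ddx58, Ifih1 and Eif2ak2, and in 3.44% of all 32851 RefSeq start regions. In Ddx58 it lay at bases 3 to 12 after the start on the opposite strand, in Ifih1 at bases 33 to 42 and in Eif2ak2 at bases 19 to 28. The third Adar start held the short form at bases 34 to 42 and again near the upstream end of its region, Ifih1 held a further short match upstream of its start, and the short form was present in 8.56% of all regions. Neither form was found in the Mavs region or at the first and second Adar starts. A match describes the letters of these windows and is no evidence of binding.

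Depth was 57859509 to 101068327 counts per library in b1 and 63461414 to 112007140 in b2. Levels are given as CPM, TMM-scaled counts relative to library size, for comparisons between groups, and as TPM, which takes account of transcript length, for comparisons between genes. Sgk1 transcripts averaged 4.78 and 2.46 CPM in double KO cells with DMXAA in b1 and b2 and 4.25 CPM in the SGK1 KO with DMXAA, against 50.5 and 35.1 CPM in control cells with DMXAA in b1 and b2. With DMXAA they were also lower in cells not edited in Sgk1, at 21.6 CPM in the SGK3 KO and 11.5 CPM with Sanofi-14h. At rest the SGK1 KO (0.15 to 1.6 CPM) overlapped control cells of b2 (1.06 to 3.07 CPM), and the double KO (0.464 to 0.871 CPM) did not. A lower Sgk1 level is thus not particular to the edit. Sgk3 transcripts averaged 104 and 89.1 CPM in the SGK3 KO with DMXAA and at rest, against 101 and 94.3 CPM in control cells of b1 with DMXAA and at rest. In the double KO with DMXAA they averaged 118 and 128 CPM in b1 and b2, against 101 and 128 CPM in control cells with DMXAA, so Sgk3 levels do not check that label; a gene's count cannot reveal an edited base. Of 10 macrophage markers, 9 exceeded 1 CPM in every group and Mertk was at or near 0. The summed markers of T cells, B cells, fibroblasts and epithelial cells were each at most 1.78 CPM in any library, and those of dendritic cells at most 5.69 CPM. The summed macrophage markers were 7510 to 10200 CPM in the edited b2 libraries, against 11200 to 13600 CPM in the control b2 libraries, and their part in the b2 results was not tested; in b1 the sums of all groups lay between 6920 and 8950 CPM. In bulk RNA, fewer cells with a transcript and less transcript per cell cannot be told apart.

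All 7 genes were detected, at very unequal levels. In control cells with DMXAA in b1, Ifih1 had the highest mean at 142 ± 15 TPM, then Adar at 99.5 ± 11.2 and Ddx58 at 84.9 ± 11.9 TPM (SD, n = 5). Dhx58 and Eif2ak2 followed at 59.8 ± 7.36 and 57.2 ± 6.85 TPM, which do not differ beyond their spread, and Mavs and Zbp1 came last at 14 ± 1.02 and 5.45 ± 1.14 TPM. In control cells at rest the order was another, with Adar first at 56.7 ± 6.49 TPM and Eif2ak2 next at 41.4 ± 7.12 TPM (n = 3). Ddx58, Mavs and Dhx58 then lay close together at 23.1 ± 6.18, 22.2 ± 1.46 and 21.9 ± 7.99 TPM, within their spread, and Ifih1 had only 7.95 ± 2.06 TPM. In b2, DMXAA-treated control cells had Adar first at 97.1 ± 6.63 TPM, and Ddx58, Eif2ak2 and Ifih1 together below it at 67.9 ± 7.69, 67.2 ± 4.21 and 61.2 ± 12.3 TPM (n = 4).

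**Figure D1:**
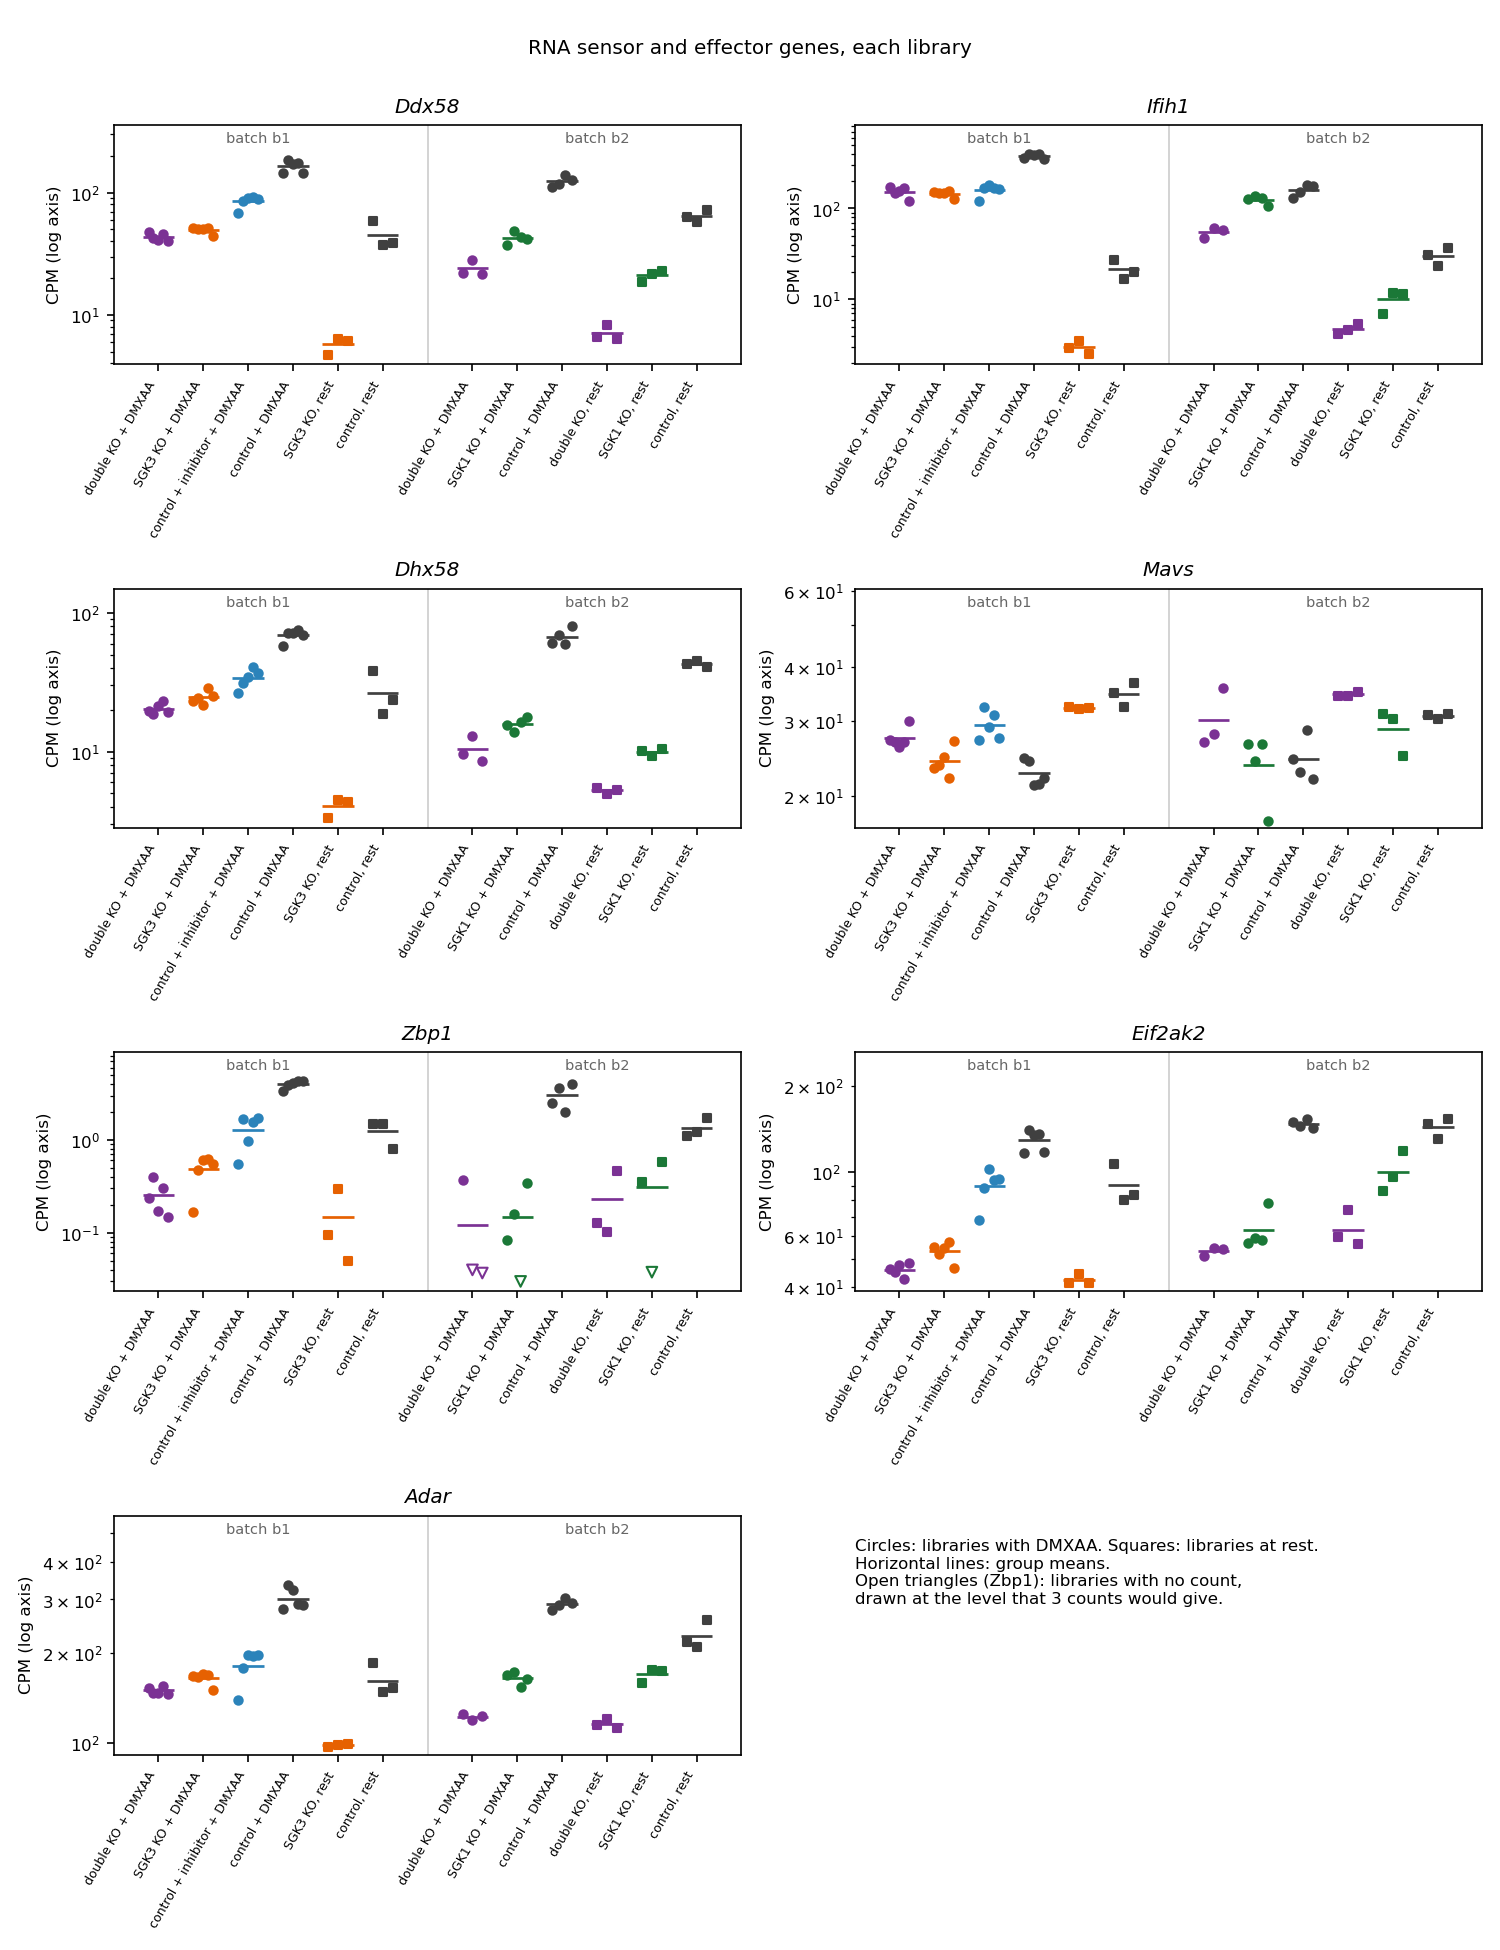
Level of each gene in every library of batches b1 and b2, in CPM on a log axis; circles are libraries with DMXAA, squares libraries at rest, horizontal lines group means. Control libraries with DMXAA are the highest for every gene except Mavs, but in b2 they overlap the SGK1 KO with DMXAA for Ifih1 and control libraries at rest for Eif2ak2; open triangles mark Zbp1 libraries with no count, drawn at the level of 3 counts.

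DMXAA raised the 3 helicase sensors in every line tested, and Ifih1 most. In the SGK3 KO (b1) 5 of the 7 genes rose and Mavs fell by edgeR's quasi-likelihood test with Benjamini-Hochberg adjustment at 0.05, where 8.58% of all tested genes rose and 7.96% fell. In the SGK1 KO (b2) 3 rose and Mavs and Eif2ak2 fell (12.5% and 11.6% of all genes), and in the double KO (b2) 3 rose and none fell (7.44% and 6.51% of all genes). Control cells of b1 had 5 genes that rose, Mavs that fell and Zbp1 that did not pass (10.8% of all genes rose and 10.3% fell). Control cells of b2 had 4 that rose, Mavs that fell and 2 that did not pass (4.74% of all genes rose and 3.06% fell).

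Ifih1, which encodes MDA5, had 152, 147, 147, 156 and 128 CPM in the SGK3 KO with DMXAA, against 2.91, 3.51 and 2.48 CPM at rest, a log2 change of 5.62 ± 0.21 (SE, adjusted p = 1.05e-22, edgeR). Control cells of b1 had 356, 402, 385, 402 and 351 CPM with DMXAA, against 27.3, 16.8 and 19.9 CPM at rest, a change of 17.8-fold (log2 4.15 ± 0.19, adjusted p = 2.56e-20). Every treated SGK3 KO library exceeded every control library at rest, while none reached a treated control library. In b2, Ifih1 had 47.5, 60.3 and 58.1 CPM in the double KO with DMXAA, against 4.17, 4.58 and 5.32 CPM at rest (log2 3.56 ± 0.19, adjusted p = 3.03e-17). The SGK1 KO had 126, 137, 129 and 106 CPM with DMXAA, against 6.9, 11.8 and 11.5 CPM at rest (log2 3.62 ± 0.19, adjusted p = 2.15e-18). Control cells of b2 had 132, 150, 180 and 175 CPM with DMXAA, against 30.8, 23.2 and 36.6 CPM at rest (log2 2.40 ± 0.17, adjusted p = 1.09e-13). The treated and resting libraries overlapped in no line.

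Ddx58, which encodes RIG-I, had 51.5, 50.5, 50.5, 51.2 and 44.2 CPM in the SGK3 KO with DMXAA, against 4.72, 6.29 and 6.15 CPM at rest (log2 3.11 ± 0.14, adjusted p = 5.74e-21). Control cells of b1 had 145, 186, 170, 176 and 145 CPM with DMXAA, against 58.5, 37.4 and 38.9 CPM at rest (log2 1.87 ± 0.13, adjusted p = 1.95e-15). The first of these resting libraries stood above the other 2, and still well below the treated ones. In b2 the double KO had 22.2, 28.3 and 21.7 CPM with DMXAA, against 6.62, 8.23 and 6.34 CPM at rest (log2 1.77 ± 0.14, adjusted p = 6.13e-13). The SGK1 KO had 37, 48.3, 43 and 41.8 CPM with DMXAA, against 18.6, 21.7 and 22.9 CPM at rest (log2 1.01 ± 0.13, adjusted p = 7.28e-08). Treated libraries of both b2 lines were below the resting control libraries of that batch. Control cells of b2 had 111, 118, 139 and 126 CPM with DMXAA, against 63.3, 57.5 and 71.5 CPM at rest (log2 0.94 ± 0.13, adjusted p = 4.98e-07).

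Dhx58, which encodes LGP2, was also called higher with DMXAA in each line, from lower levels. It averaged 24.6 ± 2.73 CPM with DMXAA and 4.05 ± 0.643 CPM at rest in the SGK3 KO (log2 2.60 ± 0.17, adjusted p = 5.39e-16), and 68.9 ± 6.75 CPM with DMXAA and 26.7 ± 10.0 CPM at rest in control cells of b1 (log2 1.37 ± 0.15, adjusted p = 1.88e-09). In b2 it averaged 10.4 ± 2.32 CPM with DMXAA and 5.27 ± 0.274 CPM at rest in the double KO (log2 0.98 ± 0.17, adjusted p = 4.8e-05), 16 ± 1.7 and 9.97 ± 0.592 CPM in the SGK1 KO with DMXAA and at rest (log2 0.68 ± 0.16, adjusted p = 0.00138), and 67.4 ± 9.41 and 42.8 ± 2.02 CPM in control cells with DMXAA and at rest (log2 0.66 ± 0.16, adjusted p = 0.00341). Without libraries E, F, P and X of b2, only library D of the SGK1 KO at rest remained, and the SGK1 KO value was log2 0.73. The resting control libraries of b1 were uneven for this gene, with 37.9 CPM in the first and 18.7 and 23.5 CPM in the others.

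Mavs, the adaptor that RIG-I and MDA5 share, moved the other way and little. It fell in the SGK3 KO, to 23.3, 23.7, 24.7, 22 and 26.9 CPM with DMXAA, against 32.3, 32 and 32.1 CPM at rest (log2 -0.41 ± 0.10, adjusted p = 0.00203). Control cells of b1 had 24.5, 24.1, 21.2, 21.4 and 22.1 CPM with DMXAA, against 34.8, 32.2 and 36.7 CPM at rest (log2 -0.61 ± 0.10, adjusted p = 5.66e-06). The groups overlapped in neither line. In b2 the falls in the SGK1 KO (log2 -0.28 ± 0.11, adjusted p = 0.0458) and in control cells (log2 -0.33 ± 0.11, adjusted p = 0.0425) were lost when single libraries were left out. Without SGK1 KO DMXAA library R, at 17.5 CPM against 24.1 to 26.5 CPM in the other 3, the SGK1 KO value was log2 -0.16 (adjusted p = 0.227), and without control DMXAA library N the control value was log2 -0.28 (adjusted p = 0.152). In the double KO the log2 difference was -0.19 ± 0.11 (adjusted p = 0.272).

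The effector kinase gene Eif2ak2 (PKR) did not move alike in all lines. In the SGK3 KO it had 53.2 ± 4.1 CPM with DMXAA and 42.4 ± 1.65 CPM at rest (log2 0.33 ± 0.11, adjusted p = 0.0302), a call that was lost when any of 6 of the 8 libraries was left out (adjusted p up to 0.114) and with log2(TPM + 1) (0.22, adjusted p = 0.331). In control cells of b1 it had 117, 140, 135, 136 and 118 CPM with DMXAA, against 107, 80.3 and 83.5 CPM at rest (log2 0.52 ± 0.11, adjusted p = 0.000277), and every treated library was above every resting one. In b2 the double KO had a log2 difference of -0.24 ± 0.12 (adjusted p = 0.19). It fell in the SGK1 KO, with 56.9, 59.4, 58.5 and 78.2 CPM with DMXAA, against 85.9, 96.3 and 119 CPM at rest (log2 -0.67 ± 0.11, adjusted p = 1.33e-05). That fall was -0.41 without libraries E, F, P and X of b2, whose counts rise with gene length by more than 0.1 log2 units per doubling. Library D was then the only SGK1 KO library at rest. Libraries B, L and N of control cells and T of the double KO, whose counts fall with length by as much (-0.14 to -0.11), were kept in that setting. In control cells of b2 it had 150, 145, 153 and 142 CPM with DMXAA, against 147, 131 and 153 CPM at rest, a log2 difference of 0.04 (95% interval -0.18 to 0.26) between groups that overlap.

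Adar, the gene of the RNA editing enzyme, rose in the SGK3 KO to 167, 166, 170, 168 and 150 CPM with DMXAA, against 97.2, 98.6 and 99.6 CPM at rest (log2 0.74 ± 0.08, adjusted p = 1.28e-09). Adar also rose in control cells of b1, to 278, 335, 322, 289 and 287 CPM with DMXAA, against 184, 148 and 152 CPM at rest (log2 0.90 ± 0.08, adjusted p = 3.34e-12). No treated library of either line was as low as a resting one of the same line. In b2 it had 122 ± 3.29 CPM with DMXAA and 116 ± 4.32 CPM at rest in the double KO (log2 0.08, 95% interval -0.09 to 0.25), and 164 ± 7.88 and 169 ± 8.7 CPM with DMXAA and at rest in the SGK1 KO (log2 -0.04, interval -0.21 to 0.12). The treated and resting libraries overlapped in both of these lines. Adar rose less in control cells of b2 than in those of b1, to 290 ± 10.7 CPM with DMXAA, against 226 ± 25.5 CPM at rest (log2 0.36 ± 0.08, adjusted p = 0.00253; not called with log2(TPM + 1), adjusted p = 0.0574).

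Zbp1, the sensor of Z-form nucleic acid, was close to the detection limit outside control cells. The SGK3 KO had 0.168 to 0.627 CPM with DMXAA and 0.0492 to 0.294 CPM at rest, ranges that overlap (log2 1.70 ± 0.89, adjusted p = 0.225). This change passed when the compared groups were fitted alone in edgeR (log2 1.71, adjusted p = 0.0396). In control cells of b1 it had 3.32, 3.87, 4.12, 4.27 and 4.3 CPM with DMXAA, against 1.48, 1.47 and 0.796 CPM at rest, groups that do not overlap. The change (log2 1.67 ± 0.81, adjusted p = 0.159) did not pass with the spread estimated over all 12 groups; it passed when the compared groups were fitted alone (adjusted p = 1.24e-05). In b2 the control cells had 2.49, 3.57, 2 and 3.95 CPM with DMXAA, against 1.11, 1.22 and 1.72 CPM at rest, and again did not overlap (log2 1.15 ± 0.82, adjusted p = 0.514; 0.0476 when fitted alone). Of the b2 libraries, 2 of the double KO with DMXAA, 1 of the SGK1 KO with DMXAA and 1 of the SGK1 KO at rest had no Zbp1 count. At 3 counts, a count of 0 allows 0.0299 to 0.0398 CPM in these libraries; the counts are estimates, so 1 read pair may stand for several counts and the true limit may be higher.

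**Figure D2:**
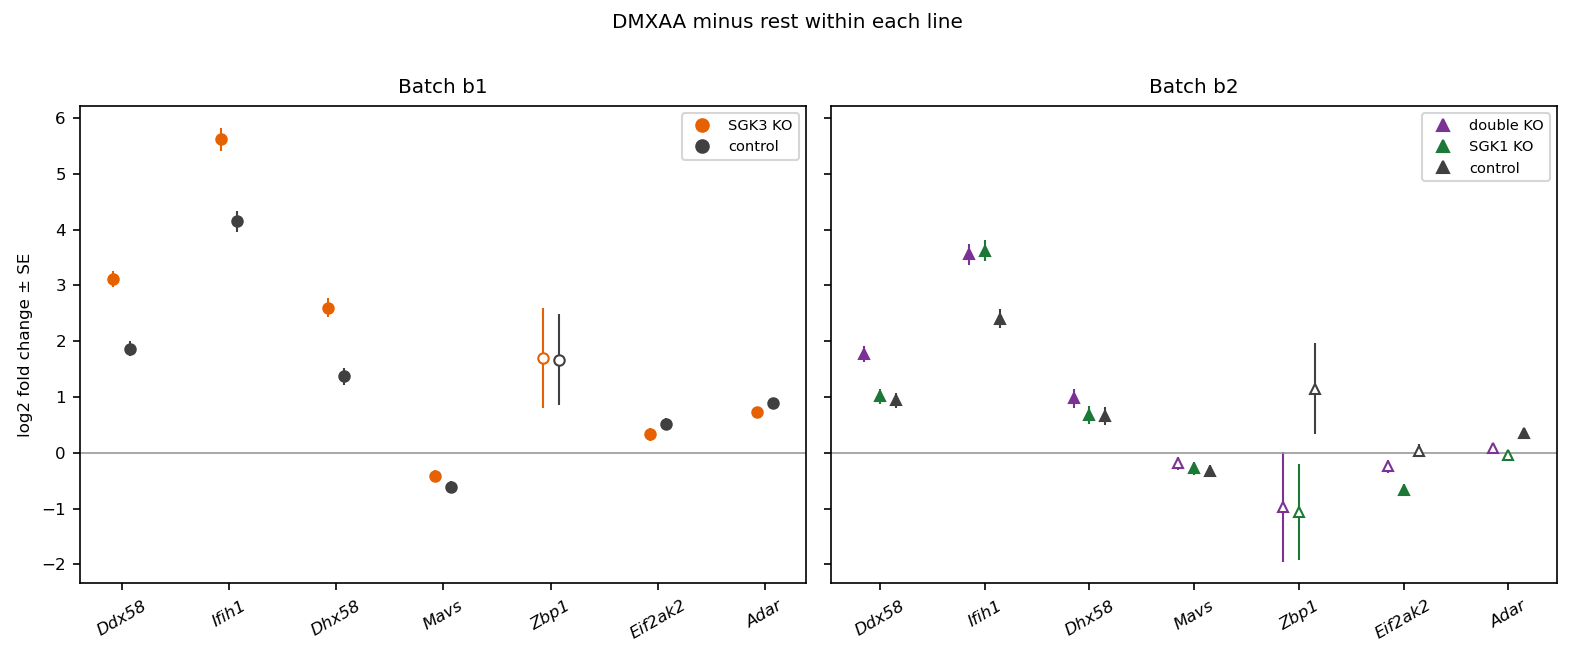
Log2 fold change ± SE of each gene, DMXAA against rest within a line, in batch b1 (left) and batch b2 (right); filled symbols passed the test, open ones did not. Ifih1 has the largest change in each of the 5 comparisons, Mavs lies below 0 in each, and Eif2ak2 and Adar lie near 0 or below it in the edited lines of b2.

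Without DMXAA, the sensors were also lower in every edited line than in control cells. Ddx58, Ifih1, Dhx58, Eif2ak2 and Adar, 5 of the 7 genes, were lower in the SGK3 KO than in control cells of b1, where 2.03% of all tested genes were lower and 2.79% higher. These 5 were also lower than in control cells of b2 in the double KO (3.51% of all genes lower, 2.75% higher) and in the SGK1 KO (14.5% lower, 11.3% higher). The share in the SGK1 KO rests on the fit: 4732 genes were called over all 12 groups and 281 with the compared groups fitted alone. Libraries E and F of the SGK1 KO at rest also had counts that rise with gene length (0.17 and 0.28 log2 units per doubling). Without them only library D of that group remains. The libraries of edited and control cells did not overlap for any of these 5 genes in any line. The share of all tested genes without overlap was not counted, here or for other comparisons. Ddx58 fell in the double KO to 7.06 ± 1.02 CPM, against 64.1 ± 7.01 CPM in control cells (log2 -3.18 ± 0.15, adjusted p = 1.39e-20), and in the SGK3 KO to 5.72 ± 0.868 CPM, against 44.9 ± 11.8 CPM in control cells (log2 -2.97 ± 0.15, adjusted p = 3.82e-19). In the SGK1 KO it averaged 21.0 ± 2.2 CPM (log2 -1.61 ± 0.14). The log2 differences of Ifih1 were -2.84 ± 0.20 in the SGK3 KO, -2.69 ± 0.19 in the double KO and -1.58 ± 0.18 in the SGK1 KO, and those of Dhx58 -2.72 ± 0.18, -3.02 ± 0.18 and -2.10 ± 0.17.

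At rest the effectors were lower too. Eif2ak2 had 41.5, 44.3 and 41.3 CPM in the SGK3 KO, against 107, 80.3 and 83.5 CPM in control cells (log2 -1.09 ± 0.12, adjusted p = 6.07e-09). In b2 it had 59.6, 74 and 56.3 CPM in the double KO and 85.9, 96.3 and 119 CPM in the SGK1 KO, against 147, 131 and 153 CPM in control cells (log2 -1.18 ± 0.12 and -0.52 ± 0.12). Every edited library lay below every control library. Adar was lower as well, with log2 differences of -0.71 ± 0.09 in the SGK3 KO, -0.97 ± 0.09 in the double KO and -0.42 ± 0.09 in the SGK1 KO. In the SGK1 KO, the Eif2ak2 and Adar calls were lost when only the compared groups were fitted (adjusted p = 0.0901 and 0.0866) and with log2(TPM + 1) in place of counts (0.105 and 0.349). Zbp1 had 0.0954, 0.294 and 0.0492 CPM in the SGK3 KO, against 1.48, 1.47 and 0.796 CPM in control cells; the groups did not overlap and the adjusted p was 0.0587. In b2 it had 0.127, 0.103 and 0.463 CPM in the double KO and 0.351, 0 and 0.584 CPM in the SGK1 KO, against 1.11, 1.22 and 1.72 CPM in control cells, again without overlap (adjusted p = 0.104 and 0.0813). DESeq2 called Zbp1 lower in each of the 3 lines (adjusted p = 0.00808, 0.0344 and 0.0457). Mavs did not pass in any line at rest, with log2 differences of -0.10, 0.17 and -0.10 in the SGK3 KO, double KO and SGK1 KO.

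With DMXAA, the edited lines were below control cells for every gene but Mavs, and Ifih1 in the SGK1 KO did not pass. In b1, 6 genes were lower in the double KO and Mavs was higher (6.21% of all tested genes lower, 7.15% higher), and 6 genes were lower in the SGK3 KO (4.7% lower, 6.12% higher). In b2, 6 were lower in the double KO and Mavs was higher (11.6% of all genes lower, 10% higher), and 5 were lower in the SGK1 KO (11.4% lower, 9.43% higher). Ddx58 reached 40 to 47.9 CPM in the double KO and 44.2 to 51.5 CPM in the SGK3 KO, against 145 to 186 CPM in control cells of b1, with log2 differences of -1.92 ± 0.11 and -1.73 ± 0.11. Its treated libraries in both edited lines lay in the range of control cells at rest (37.4 to 58.5 CPM). For Ifih1 the same lines passed far above that resting range, with 153 ± 20.5 and 146 ± 10.7 CPM with DMXAA, and stayed below the 379 ± 24.5 CPM of treated control cells (log2 -1.31 ± 0.13 and -1.38 ± 0.13). Dhx58 averaged 20.4 ± 1.8 and 24.6 ± 2.73 CPM in the double KO and SGK3 KO, against 68.9 ± 6.75 CPM in control cells.

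The effectors were below control cells with DMXAA as well. Eif2ak2 had 46.1, 45, 47.7, 42.8 and 48.6 CPM in the double KO and 55.3, 52.2, 54.6, 57.4 and 46.7 CPM in the SGK3 KO, against 117, 140, 135, 136 and 118 CPM in control cells with DMXAA (log2 -1.49 ± 0.10 and -1.28 ± 0.09, adjusted p = 1.36e-16 and 2e-14). Each treated edited library was also below the lowest resting control library. Adar averaged 150 ± 4.09 and 164 ± 8.36 CPM in the double KO and SGK3 KO, against 302 ± 24.6 CPM in control cells (log2 -1.01 ± 0.07 and -0.88 ± 0.07). In b2 the log2 differences of Eif2ak2 were -1.46 ± 0.12 in the double KO and -1.22 ± 0.11 in the SGK1 KO, and those of Adar -1.25 ± 0.08 and -0.82 ± 0.08. Zbp1 had 0.149 to 0.398 CPM in the double KO and 0.168 to 0.627 CPM in the SGK3 KO, against 3.32 to 4.3 CPM in control cells of b1 (adjusted p = 0.000111 and 0.00231). In b2, where several libraries had no Zbp1 count, it averaged 0.122 CPM in the double KO and 0.147 CPM in the SGK1 KO, against 3.00 CPM in control cells (adjusted p = 0.000475 and 0.000228). Library T, at 0.366 CPM, held the only Zbp1 counts of the treated double KO in b2.

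Ifih1 in the SGK1 KO was the exception among the sensors. Its 126, 137, 129 and 106 CPM in the SGK1 KO with DMXAA overlapped the 132, 150, 180 and 175 CPM of control cells (log2 -0.36, 95% interval -0.64 to -0.07, adjusted p = 0.0798). It passed when control library K was left out (adjusted p = 0.0459) or when the rerun libraries S, V and W were added (0.0495). In the same cells Ddx58 had 37 to 48.3 CPM, against 111 to 139 CPM in control cells (log2 -1.53 ± 0.12, adjusted p = 1.17e-13), and Dhx58 had 13.8 to 17.9 CPM, against 60 to 79.9 CPM in control cells (log2 -2.08 ± 0.15, adjusted p = 7.55e-15).

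Sanofi-14h given before DMXAA to control cells was followed by lower sensor and effector transcripts. In the inhibitor-treated libraries 5 genes were lower and Mavs was higher than with DMXAA alone, where 4.81% of all tested genes were lower and 3.7% higher. Ifih1 had 122, 169, 181, 168 and 165 CPM with inhibitor and DMXAA, against 356, 402, 385, 402 and 351 CPM with DMXAA alone (log2 -1.24 ± 0.13, adjusted p = 8.43e-09). Ddx58 had 68.4, 85.8, 89.7, 91.4 and 88.2 CPM with inhibitor and DMXAA, against 145 to 186 CPM with DMXAA alone (log2 -0.96 ± 0.10, adjusted p = 6.69e-09). The groups do not overlap for either gene, and the first inhibitor library was the lowest for both. The log2 differences of Dhx58, Adar and Eif2ak2 were -1.02 ± 0.13, -0.74 ± 0.07 and -0.52 ± 0.09, each past the threshold. Mavs averaged 29.3 ± 2.24 CPM with inhibitor and DMXAA and 22.7 ± 1.53 CPM with DMXAA alone (log2 0.37 ± 0.09, adjusted p = 0.00355). Zbp1 had 0.556 to 1.7 CPM with inhibitor and DMXAA, against 3.32 to 4.3 CPM with DMXAA alone, without overlap (adjusted p = 0.147; 7.75e-05 when the compared groups were fitted alone). A group with inhibitor and no DMXAA was not analysed here.

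The higher Mavs in the double KO with DMXAA was a small difference. It was 27.3 ± 1.49 CPM in the double KO and 22.7 ± 1.53 CPM in control cells of b1 (log2 0.27 ± 0.09, adjusted p = 0.0308). The call was lost without double KO library 1 or 5 (adjusted p = 0.0501 and 0.1). It was also lost without control library 3, 4 or 5 (0.0854, 0.0795 and 0.0651) and with log2(TPM + 1) (0.128). In b2 the double KO libraries had 26.7, 27.9 and 35.8 CPM, against 24.4, 22.8, 28.5 and 21.9 CPM in control cells. These groups overlap, and without double KO library X the log2 difference was 0.16 (adjusted p = 0.371) in place of 0.31 ± 0.11 (adjusted p = 0.0309). The b2 call was also lost without control library K, L or N (adjusted p = 0.0519, 0.0908 and 0.107).

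**Figure D3:**
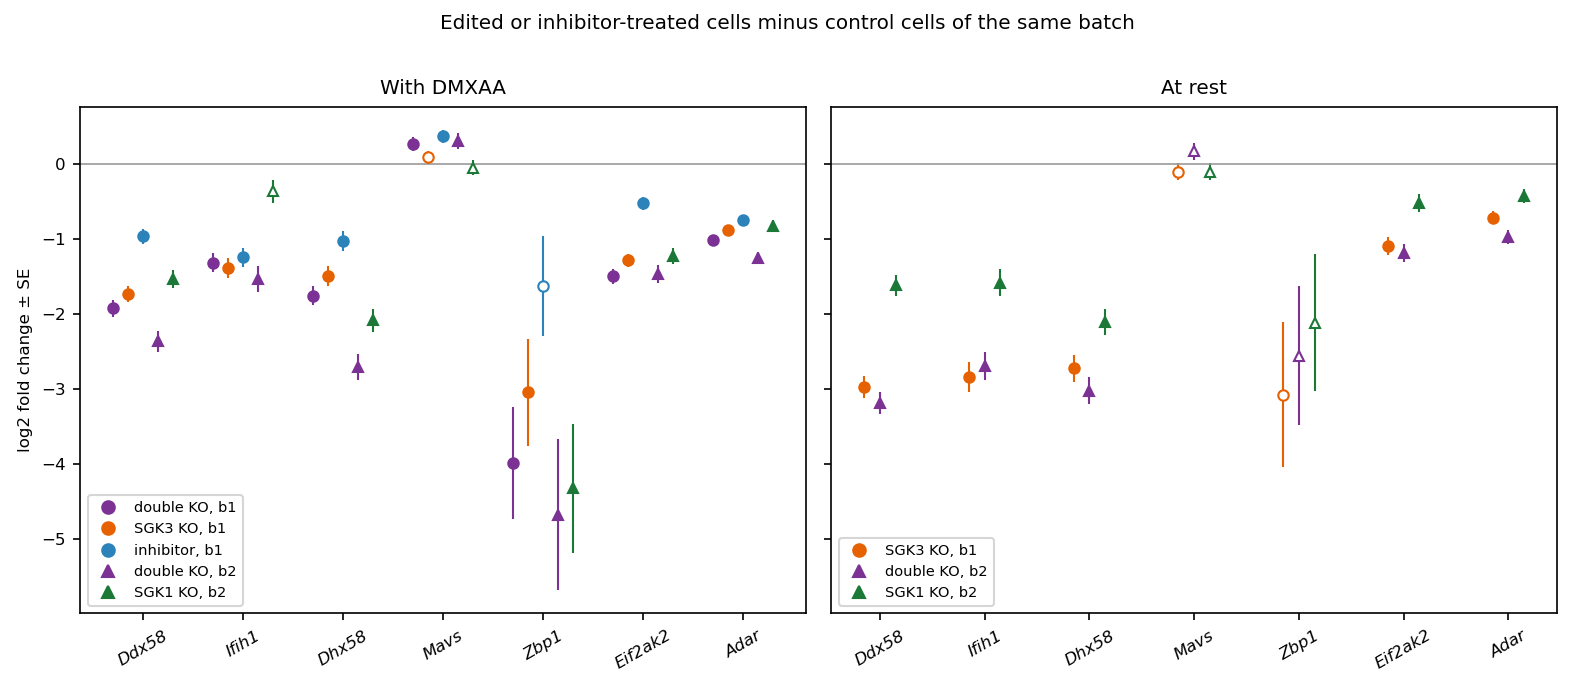
Log2 fold change ± SE of each gene in edited or Sanofi-14h-treated cells against control cells of the same batch, with DMXAA (left) and at rest (right); filled symbols passed the test. Apart from Mavs, every difference lies below 0, and in the SGK3 KO those of Ddx58 and Dhx58 are larger at rest (-2.97 and -2.72) than with DMXAA (-1.73 and -1.49).

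The double KO was also set against the single KO of the same batch. With DMXAA in b1, none of the 7 genes differed between the double KO and the SGK3 KO by edgeR's quasi-likelihood test, where 1.41% of all tested genes were lower and 0.748% higher, and the libraries overlapped for each gene. The 95% intervals of the log2 difference were -0.39 to 0.02 for Ddx58, -0.18 to 0.33 for Ifih1, -0.27 to 0.00 for Adar and -0.39 to -0.03 for Eif2ak2. Unadjusted p-values were below 0.05 for 3 of the 7 genes (Dhx58, Mavs and Eif2ak2). DESeq2 called none, and Eif2ak2 was called when the compared groups were fitted alone in edgeR (log2 -0.21, adjusted p = 0.0227). In b2, 4 were lower and Mavs was higher in the double KO than in the SGK1 KO with DMXAA, where 3.52% of all genes were lower and 3.11% higher. Ifih1 had 47.5, 60.3 and 58.1 CPM in the double KO, against 126, 137, 129 and 106 CPM in the SGK1 KO (log2 -1.17 ± 0.16, adjusted p = 4.51e-06). Ddx58 had 21.7 to 28.3 CPM in the double KO, against 37 to 48.3 CPM in the SGK1 KO (log2 -0.82 ± 0.13, adjusted p = 2.5e-05). Neither gene's groups overlap. The lower Adar (log2 -0.42 ± 0.08), lower Dhx58 (log2 -0.62 ± 0.16) and higher Mavs (log2 0.35 ± 0.11) in the double KO were lost under other settings: all 3 when the compared groups were fitted alone (adjusted p = 0.143, 0.403 and 0.745), and Dhx58 and Mavs also without double KO library X (adjusted p = 0.0688 and 0.236).

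Whether the response to DMXAA itself differed between lines was tested as a difference of differences. Relative to control cells of the same batch, the response of the SGK3 KO was larger for Ddx58 by log2 1.24 ± 0.18 (adjusted p = 3.65e-05), for Ifih1 by 1.46 ± 0.23 (adjusted p = 0.000468) and for Dhx58 by 1.23 ± 0.22 (adjusted p = 0.00145), where 0.0819% of all tested genes had a more positive change and 0.109% a more negative one. These sensors started lower and ended lower in the SGK3 KO, so the larger fold goes with a lower level at both ends. With log2(TPM + 1), where low levels are compressed, the Ifih1 and Dhx58 differences of response did not pass (0.64 and 0.91, adjusted p = 0.586 and 0.064). The Dhx58 difference also did not pass when the compared groups were fitted alone in edgeR (log2 1.25, adjusted p = 0.0612). For Eif2ak2, Adar and Mavs the difference of response did not pass (log2 -0.19 ± 0.15, -0.17 ± 0.11 and 0.19 ± 0.14). In b2 the response of the double KO was larger for Ifih1 (log2 1.16 ± 0.24, adjusted p = 0.00274) and Ddx58 (log2 0.83 ± 0.19, adjusted p = 0.00649), where 1.66% of all genes had a more positive change and 1.31% a more negative one; neither passed with log2(TPM + 1) (adjusted p = 0.144 and 0.174). The response of the SGK1 KO was larger for Ifih1 (log2 1.23 ± 0.23, adjusted p = 0.00118) and smaller for Eif2ak2 (log2 -0.71 ± 0.16, adjusted p = 0.00775) and Adar (log2 -0.40 ± 0.12, adjusted p = 0.0458), where the shares of all genes were 1.74% and 1.09%. None of these 3 passed when the compared groups were fitted alone (adjusted p = 0.0531, 0.114 and 0.263), and without SGK1 KO resting library F Ifih1 alone was called, with Eif2ak2 at log2 -0.56 (adjusted p = 0.059) and Adar at log2 -0.38 (adjusted p = 0.111).

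Control cells of the batches did not respond alike. Their DMXAA response was larger in b1 than in b2 for Ifih1 by log2 1.75 ± 0.22 (adjusted p = 1.74e-06), for Ddx58 by 0.93 ± 0.17 (adjusted p = 0.000681) and for Adar by 0.55 ± 0.11 (adjusted p = 0.00208), where 1.81% of all genes had a more positive change in b1 and 1.4% a more negative one. The Adar difference was not called with log2(TPM + 1) (0.46, adjusted p = 0.102). Without control resting library 1 of b1, whose Dhx58 and Eif2ak2 were the highest of the 3, these genes passed as well (log2 1.05 and 0.62, adjusted p = 0.000591 and 0.0214). The lowering of Dhx58 in the double KO with DMXAA was smaller in b1 than in b2 by log2 0.95 ± 0.20 (adjusted p = 0.00181), where 4.38% of all genes had a more positive difference in b1 and 2.89% a more negative one; this did not pass with log2(TPM + 1) (log2 0.57, adjusted p = 0.132). Lines are therefore compared here within a batch.

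Genes of the wider RNA sensing pathway were counted beside these, and 56 of 58 genes in 5 lists were tested. In control cells of b1 with DMXAA, 18 rose and 9 fell (10.8% and 10.3% of all genes). In those of b2, 10 rose and 2 fell (4.74% and 3.06% of all genes), the falls near the share over all genes. Median log2 changes were 0.05 and 0.02, against 1.37 and 0.66 over the 7 genes and 0.01 and 0.00 over all genes. In b1, 6 of 14 regulators of RIG-I and MDA5 rose and 2 fell, 5 of 18 components of MAVS signalling rose and 5 fell, and 4 of 8 partners of ZBP1 and PKR rose and 0 fell. Of 13 other RNA sensors and double-stranded RNA binding proteins, 3 rose and 2 fell, and none of the other 3 eIF2alpha kinases passed. Ppp1r15a, which encodes GADD34, the phosphatase subunit that reverses PKR's phosphorylation of eIF2alpha, had the smallest adjusted p in both, at 503 and 244 CPM with DMXAA, against 16.8 and 14.1 CPM at rest in b1 and b2 (log2 4.90 ± 0.22 and 4.11 ± 0.21). Trim25, a ubiquitin ligase that activates RIG-I, rose to 577 and 470 CPM with DMXAA, against 250 and 276 CPM at rest (log2 1.21 ± 0.08 and 0.77 ± 0.08). Mex3c, a further ligase of RIG-I, rose by log2 0.68 ± 0.07 and 0.39 ± 0.07, and the downstream kinase gene Tbk1 by 0.73 ± 0.08 and 0.44 ± 0.08. Tbkbp1, an adaptor of that kinase, fell by 0.83 and 0.43 on the log2 scale. All 5 of these also changed in the same direction in the SGK3 KO, the SGK1 KO and the double KO.

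At rest, 5 of the 56 were lower and 1 was higher in the SGK3 KO than in control cells, and 6 were lower and none higher in the double KO. Irf7, Ddx60, Tlr3, Ripk3 and Mlkl were lower in both. Irf7, the interferon-inducible transcription factor downstream of MAVS, averaged 3.29 CPM in the SGK3 KO and 66 CPM in control cells of b1 (log2 -4.33 ± 0.28, adjusted p = 8.92e-15), and 4.15 CPM in the double KO and 84.1 CPM in control cells of b2 (log2 -4.34 ± 0.27, adjusted p = 2.77e-15). Tlr3, the endosomal sensor of double-stranded RNA, averaged 0.224 CPM in the double KO and 7.12 CPM in control cells (log2 -5.00 ± 0.62). Ddx60, an interferon-inducible helicase, averaged 0.0843 CPM in the SGK3 KO and 4.95 CPM in control cells of b1 (log2 -5.86 ± 0.89), and 0.151 CPM in the double KO and 6.67 CPM in control cells of b2 (log2 -5.41 ± 0.82). Ripk3 and Mlkl, which carry out necroptosis downstream of ZBP1, had log2 differences of -0.43 ± 0.10 and -0.61 ± 0.15 in the SGK3 KO and -0.38 ± 0.10 and -0.90 ± 0.15 in the double KO. In the SGK1 KO 13 were higher and 14 lower. Irf7 (log2 -2.56 ± 0.25), Ddx60 (-5.90 ± 0.86), Tlr3 (-1.87 ± 0.52), Mlkl (-0.56 ± 0.15) and Ripk3 (-0.36 ± 0.10) were again lower. Traf3, an adaptor downstream of MAVS, was higher (log2 0.51, adjusted p = 0.000482). Libraries E and F of the SGK1 KO at rest have the trend with gene length given above. Its part in the values of these pathway genes was not tested. These SGK1 KO counts stand beside 11.3% of all genes higher and 14.5% lower, shares that fall with the fit as given above. In the SGK3 KO and the double KO at rest, 2.03% and 3.51% of all genes were lower.

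With DMXAA, 11 of the 56 were lower and 4 higher in the SGK3 KO (4.7% and 6.12% of all genes), 10 lower and 5 higher in the double KO of b1 (6.21% and 7.15%), and 9 lower and 3 higher with Sanofi-14h (4.81% and 3.7%). In b2, 9 were lower and 5 higher in the SGK1 KO (11.4% and 9.43% of all genes), and 14 lower and 6 higher in the double KO (11.6% and 10%). The numbers of higher genes lie near the shares over all genes. Irf7, Tlr3 and Mlkl were lower in each of these 5 comparisons. Irf7 averaged 5.39 CPM in the double KO and 8.83 CPM in the SGK3 KO, against 121 CPM in control cells of b1 (log2 -4.48 ± 0.21 and -3.78 ± 0.20). In b2 it averaged 1.61 CPM in the double KO and 3.8 CPM in the SGK1 KO, against 111 CPM in control cells (log2 -6.09 ± 0.30 and -4.87 ± 0.24). With Sanofi-14h the genes of smallest adjusted p were Trim25 (log2 -0.57 ± 0.07), Ppp1r15a (-1.05 ± 0.15) and Zc3hav1, an antiviral zinc finger protein gene (-0.58 ± 0.11), and Irf7 averaged 64 CPM with inhibitor and DMXAA and 121 CPM with DMXAA alone. Among partners of ZBP1 and PKR, 3 of 8 were lower in the SGK3 KO, in the double KO of b1 and with Sanofi-14h. In b2, 5 of 8 were lower in the double KO and 2 of 8 in the SGK1 KO. In each of these comparisons 0 were higher. Irf7 fell with DMXAA in the SGK1 KO, to 3.8 CPM, against 14.3 CPM at rest (log2 -1.91 ± 0.23, adjusted p = 3.75e-08), and in the double KO of b2, to 1.61 CPM, against 4.15 CPM at rest (log2 -1.35 ± 0.28, adjusted p = 0.000524). It rose in the SGK3 KO, to 8.83 CPM, against 3.29 CPM at rest (log2 1.42 ± 0.24, adjusted p = 2.06e-05). Irf7 also rose in control cells of b1 (log2 0.87 ± 0.21, adjusted p = 0.00195) and did not pass in those of b2 (log2 0.40 ± 0.22, adjusted p = 0.339). The other 3 eIF2alpha kinases were called in none of the 5 comparisons with control cells under DMXAA.

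**Figure D4:**
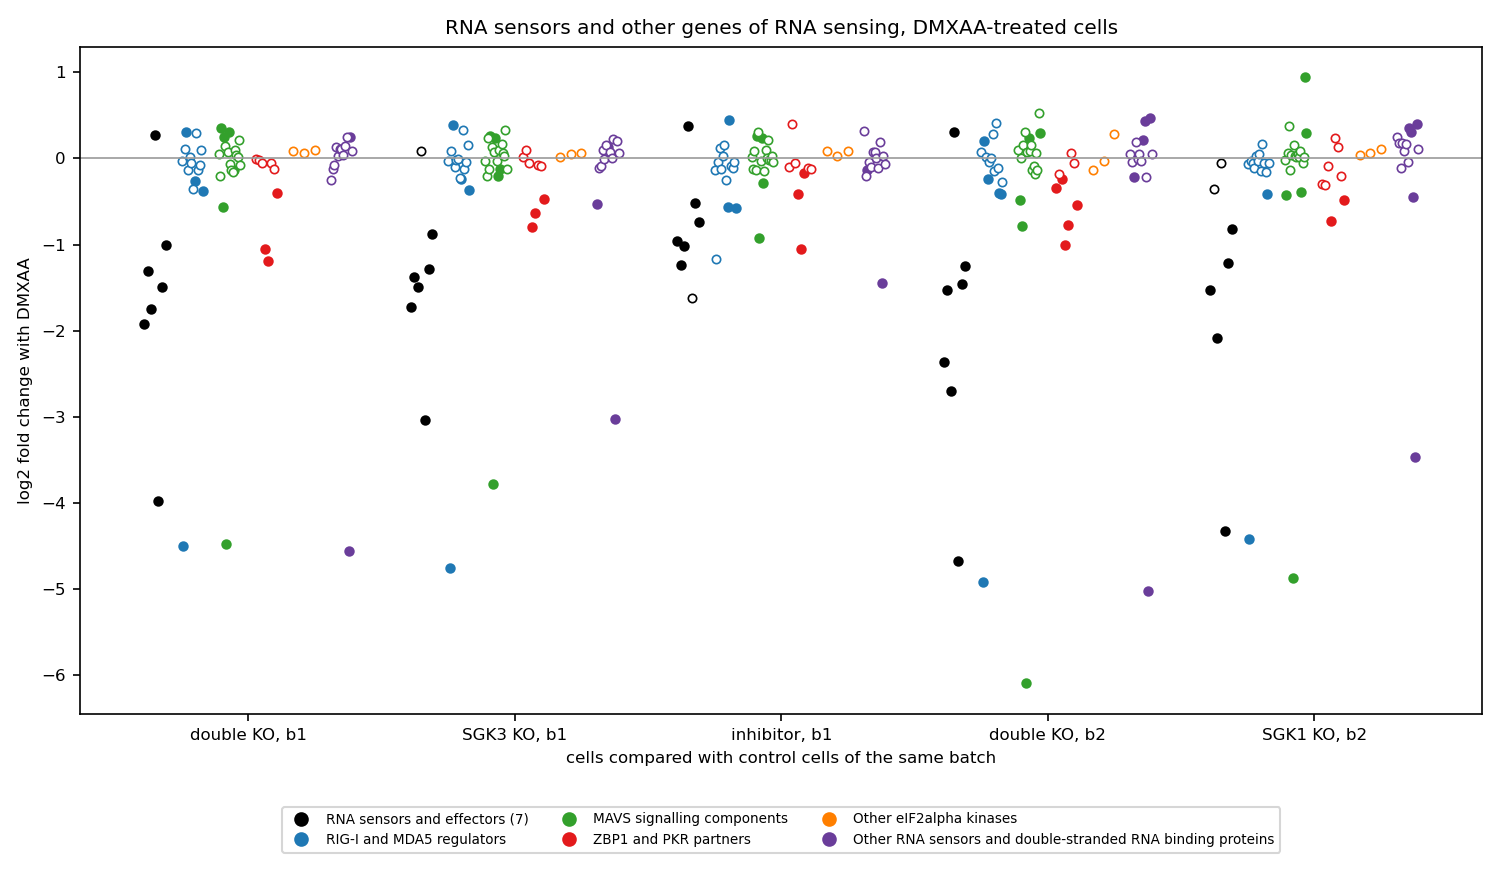
Log2 fold change of the 7 genes (black) and of 56 pathway genes in 5 lists (colours), DMXAA-treated edited or Sanofi-14h-treated cells against DMXAA-treated control cells of the same batch; filled symbols passed the test. Apart from Mavs, the black points lie between -0.36 and -4.67, while most pathway genes lie near 0; the pathway genes near or below -3 are Irf7, Ddx60 and Tlr3.

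Over the 12 group means, with the batch mean taken off, the genes split by how they moved. Ddx58 and Dhx58 were most alike (Pearson r = 0.977), followed by Dhx58 and Adar (0.949) and by Zbp1 and Eif2ak2 (0.945). Ifih1 was close to Ddx58 (0.88) and less so to Eif2ak2 (0.356), and Mavs was negatively related to each of the others (-0.804 to -0.22). Among 11422 other genes, those most like Ifih1 were Ifit3 (0.99), Oasl2 (0.985) and Isg15 (0.984), and those most like Ddx58 were Rtp4 (0.984), Cmpk2 (0.98) and Gvin-ps3 (0.973). Ifi44, AW011738 and Cmpk2 were closest to Dhx58 (0.975, 0.975 and 0.969), Sp100, Phf11d and Trim12c to Zbp1 (0.98, 0.977 and 0.977), and Xaf1, Irf7 and Oas2 to Eif2ak2 (0.989, 0.988 and 0.988). Rnf213, Irgm1 and Dtx3l were closest to Adar (0.978, 0.974 and 0.972), and Senp8 and Ppp1r16a were among those closest to Mavs (0.958 and 0.954). These correlations describe group means that share libraries and lines.

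Batch b3 held 4 libraries marked as reruns, which entered no test above other than as the named addition; of these, library J has a title and a treatment label that disagree and was put in no group. The SGK1 KO with DMXAA (library S) had 56.4 CPM of Ddx58, 103 CPM of Ifih1 and 67.4 CPM of Eif2ak2. The double KO with DMXAA (libraries V and W) had 42.9 and 28.3 CPM of Ddx58, 98.8 and 54.2 CPM of Ifih1 and 56 and 44.6 CPM of Eif2ak2. For Ifih1, library V was above the 3 double KO libraries of b2 and library W lay among them. For Dhx58 the reruns were all above their b2 groups, with 22.6 and 19.9 CPM in double KO libraries V and W (8.51 to 13 CPM in b2) and 28.6 CPM in SGK1 KO library S (13.8 to 17.9 CPM in b2).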

How the data were processed

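RNA was measured in 50 libraries of RAW264.7 cells by poly-A RNA sequencing, per the labels' protocols. The authors aligned with STAR 2.7.9a and quantified with StringTie 2.2.0 on GRCm39, per the submitters' processing notes; whether counting used strand is not given in the sources used here. The deposited tables hold expected counts, which need not be whole, and TPM values per gene, per the labels. Counts were rounded and tested with edgeR 4.0.16 (TMM, filterByExpr, robust quasi-likelihood F test, R 4.3.3) over the 46 libraries of b1 and b2, with a coefficient for each of the 12 groups and Benjamini-Hochberg adjustment over 18315 genes at 0.05. Every comparison lies within a batch, except the differences between batches. SE was taken from the log2 fold change and its F value, and 95% intervals as 1.96 SE.

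The alternatives were DESeq2 1.42.0, RLE size factors, no filter on low counts, limma 3.58.1 on log2(TPM + 1) and log2(TPM + 0.1), the compared groups alone, a replicate block, libraries whose counts rise with gene length left out, b3 libraries added, and each library left out in turn. The 7 genes, the pathway lists and the motifs were chosen with earlier results of these data known. Named genes are the 7, the 3 pathway genes of smallest adjusted p in a comparison plus those needed to describe a list, and the 3 genes most like each of the 7 in profile, of which 1 is not reported here. The steps were tested on simulated data, and 70 pairs of replicates were compared, of which 0 were identical. Counting limits cover counting error only. The sources do not pair libraries between groups.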

Additional observations from a re-analysis of the deposited data

Results flagged for a closer look

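In 12 results the effect of the same contrast differed between lines or batches by a test of the difference itself, in log2 units. The DMXAA response was larger in the SGK3 KO than in control cells of b1 for Ifih1 (1.46), Ddx58 (1.24) and Dhx58 (1.23). It was larger in the double KO than in control cells of b2 for Ifih1 (1.16) and Ddx58 (0.83). In the SGK1 KO, set against control cells of b2, it was larger for Ifih1 (1.23) and smaller for Eif2ak2 (-0.71) and Adar (-0.40). The response of control cells was larger in b1 than in b2 for Ifih1 (1.75), Ddx58 (0.93) and Adar (0.55), and the lowering of Dhx58 in the treated double KO was smaller in b1 than in b2 (0.95). As given above, the SGK1 KO calls and the SGK3 KO call of Dhx58 were lost when the compared groups were fitted alone. With log2(TPM + 1), the double KO calls and the SGK3 KO calls of Ifih1 and Dhx58 were lost. The calls between batches of Adar and Dhx58 were lost there too.

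In 7 of 42 pairs of a gene and a group of 4 or 5 libraries, 1 library stood apart from the others. The measure was its gap relative to the whole range of the group, and for a single gene chance alone does this in about 1 in 20 groups. The 7 genes were measured in the same libraries, so the pairs are not independent and their number cannot be set against that rate. The gap was 0.863 of the range for Ddx58 and 0.8 for Adar in library 5 of the SGK3 KO with DMXAA, which was the lowest for both. It was 0.757 for Ddx58 and 0.729 for Ifih1 in library 1 of the inhibitor group, again the lowest. It was 0.713 for Dhx58 in library 1 of control cells with DMXAA in b1 (the lowest), 0.737 for Mavs in library 5 of the double KO with DMXAA in b1 (the highest) and 0.883 for Eif2ak2 in library R of the SGK1 KO with DMXAA (the highest).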

How the results depend on the processing

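No called result changed sign under any alternative run. Of counts of the 7 genes called, 134 stayed within 1.5 times under the alternatives and 14 did not; with 1 library left out, 186 did and 5 did not. With the compared groups fitted alone, the counts were 3 for the SGK1 KO against control cells at rest (5 in the reported fit), 2 for the treated double KO against the SGK1 KO (5), 0 for the SGK1 KO response against that of control cells (3) and 1 for the treated double KO against the SGK3 KO (0). Without libraries E, F, P and X the count was 3 for the treated double KO against the SGK1 KO (5). Counts that use the SGK1 KO at rest are not given for that setting, which leaves only library D. With limma on log2(TPM + 0.1) the count was 3 for the response of control cells in b2 (5). It was 1 for the double KO response against control cells (2) and 0 for the difference between batches in the treated double KO (1). With log2(TPM + 1) the count was 0 for each of these last 2, and 1 for the SGK3 KO response against control cells (3). DESeq2 called 5 genes for the response of control cells in b1 against b2 (3). With limma on log2(TPM + 0.1) the median log2 change of all genes was 0.101 for the SGK1 KO at rest (-0.014 in the reported fit) and -0.103 for its response against control cells (0.000). Counts over all genes also moved with the groups fitted alone: the SGK1 KO response had 730 calls (4410 in the reported fit), the double KO response of b2 467 (2555), the treated double KO against the SGK1 KO 68 (1215), and the SGK3 KO at rest 2305 (883). Why these counts moved was not tested.

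With 1 library left out, counts ranged from 3 to 5 for the response of control cells in b1 against b2 (5 without b1 control resting library 1), from 1 to 3 for the SGK1 KO response against control cells (1 without library F), from 1 to 2 for the difference between batches in the treated double KO (2 without T or U) and from 3 to 5 for the double KO against the SGK1 KO (3 without X). In b1 a replicate block left the count at 6 for the response of control cells and gave 5 in place of 6 for that of the SGK3 KO, where Eif2ak2 was lost (adjusted p = 0.0561). Same-numbered libraries of different groups did not deviate together (57 correlations of -0.1 to 0.082), and 5 of 26 libraries correlated best with their own number. Zbp1, at a few CPM or less, is the gene that depth limits most.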
